A study of Mus musculus with 3 samples.

Results

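Transcripts of the amino acid transporter families were compared in 3 cultured populations of JC, a mouse mammary carcinoma line, with 1 library of polyadenylated RNA per population. The genes were those of the solute carrier families Slc1, Slc3, Slc6, Slc7, Slc36, Slc38 and Slc43, found by symbol in a table of 55471 features. The rule matched 61 genes, and it used names only, not levels. JC-WT is the population whose genotype and treatment labels both read WT. JC-P was recovered from tumours in the mammary fat pad on day 14. JC-M3 came out of 3 rounds in which cells descended from JC-P were injected into the tail vein and collected from lung metastases after 28 days. The genotype label of all 3 is WT, and all were grown in DMEM with fetal bovine serum. The treatment label of JC-P reads metastasis, as it does for JC-M3, so the fat pad origin of JC-P rests on the protocol alone. The labels do not say whether JC-M3 descends from 1 clone.

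Amino acid transporters bring the building blocks of protein, nucleotides and glutathione into the cell, and many of them are exchangers that let one amino acid out for every one they take in. The Slc7 light chains reach the plasma membrane only when bound to an Slc3 heavy chain, Slc3a2 (also called 4F2hc or CD98) or Slc3a1. Sodium-coupled carriers of the Slc38 and Slc1 families accumulate glutamine and other neutral amino acids, which the exchangers then trade for leucine and other essential ones. Members in the lysosomal membrane export amino acids from that organelle and take part in the activation of the growth kinase mTORC1. When amino acids run short, the transcription factor ATF4 binds C/EBP-ATF sites in the promoters of several of these genes. Tumour cells commonly carry high levels of Slc7a5, Slc3a2 and Slc1a5.

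C/EBP-ATF sites are shown first because they are the sequence element through which this gene family is known to answer amino acid shortage. The motif searched was TGATGNAA on either strand, in windows from 250 bases before to 50 bases after each RefSeq transcription start (GRCm38.p6). Of the 27 transporter genes measured in these cells, 17 were matched in the table of promoters, with 26 starts, and 3 of the 17 held the motif: Slc1a4, Slc7a7 and Slc7a11. Not matched, and so not searched, were Slc1a5, Slc38a1, Slc38a3, Slc43a3, Slc6a2, Slc6a6, Slc6a8, Slc7a3, Slc7a4 and Slc7a5. The motif stood in 3.97% of 32851 promoters, and in 4 of the 26 member promoters, of which 2 are overlapping Slc7a7 windows that share 1 site. The stretches below run 5′ to 3′ on the gene's strand, from 150 bases before to 10 bases after the start, and capitals mark the motif. For Slc38a2, shown because it had the lowest ratio of JC-P against JC-WT among members with a mean of at least 5 TPM, capitals mark the antioxidant response core TGACNNNGC, found in 12.4% of promoters. Slc38a1 and Slc38a3 held the other highest and lowest ratios among those members, and no promoter of theirs could be shown.
Slc7a11, chr3:50443604-50443763, minus strand: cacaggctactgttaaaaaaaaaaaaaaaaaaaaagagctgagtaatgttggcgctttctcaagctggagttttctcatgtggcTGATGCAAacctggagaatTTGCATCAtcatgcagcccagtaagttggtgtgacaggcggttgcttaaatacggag
Slc1a4, chr11:20332704-20332863, minus strand: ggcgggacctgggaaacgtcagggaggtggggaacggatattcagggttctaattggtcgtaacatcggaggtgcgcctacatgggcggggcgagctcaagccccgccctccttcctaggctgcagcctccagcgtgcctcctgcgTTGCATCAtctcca
Slc7a7, chr14:54417935-54418094, minus strand: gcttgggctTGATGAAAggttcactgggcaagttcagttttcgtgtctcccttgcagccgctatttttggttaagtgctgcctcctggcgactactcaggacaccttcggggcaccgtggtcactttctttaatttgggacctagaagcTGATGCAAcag
Slc38a2, chr15:96699719-96699878, minus strand: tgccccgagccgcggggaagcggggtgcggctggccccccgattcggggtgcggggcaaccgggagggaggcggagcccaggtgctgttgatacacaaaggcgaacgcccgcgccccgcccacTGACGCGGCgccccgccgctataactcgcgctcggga

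The Slc7a11 promoter carried the motif in both orientations, separated by 11 bases. The 3 genes with the motif did not share a pattern of levels. Slc7a11, the cystine and glutamate exchanger xCT, stood at 5.54 TPM (JC-WT), 5.89 TPM (JC-P) and 4.13 TPM (JC-M3), and Slc1a4, the exchanger of serine, alanine and cysteine also named ASCT1, at 75.1 (JC-WT), 73.0 (JC-P) and 66.0 TPM (JC-M3). Slc7a7, given with the light chains below, was higher in JC-P than in JC-WT. The E-box CACGTG, bound by MYC and by the lysosomal regulators TFEB and TFE3, was found in the promoters of Slc36a1 and Slc38a7, against 7.15% of all promoters. The cyclic AMP response element TGACGTCA was found in that of Slc38a6, against 1.79%, and the antioxidant response core in those of Slc36a1, Slc38a2, Slc6a9, Slc7a1 and Slc7a6. A match describes the letters of these windows and not a bound site. Sequence outside the windows was not searched, so a gene without a match may hold the motif elsewhere.

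TPM is a length-scaled abundance scaled to the library total, so levels can be set side by side between genes. A gene was called measured where its 3 libraries averaged 1 TPM or more, which held for 27 of the 61 genes and for 14527 of all features. Each ratio is the log2 ratio of TPM + 0.5, with the population named first on top, and a gene was called higher or lower at 2-fold. With 1 library per population, no test was possible and no ratio has a replicate check. The range in brackets beside a ratio is the 95% exact counting interval of the plain TPM ratio, from read numbers recovered from the TPM. It leaves out the variation between cultures, and for genes of a few TPM the ratio with 0.5 added can lie below the interval. Reads on genes numbered 18093426 (JC-WT), 22132593 (JC-P) and 23386413 (JC-M3). Markers only partly met the label epithelial-like. Of 13 epithelial markers 4 were measured. Krt8 stood at 1503 (JC-WT), 1873 (JC-P) and 681 TPM (JC-M3), Krt18 at 48.6 (JC-WT), 48.5 (JC-P) and 18.4 TPM (JC-M3), and the junction gene Ocln at 4.06 (JC-WT), 0.865 (JC-P) and 0.0345 TPM (JC-M3). Their median log2 ratio was -0.53 for JC-P against JC-WT, with Ocln and Krt7 at least 2-fold lower, and -1.26 for JC-M3 against JC-WT, with 3 lower. For JC-M3 against JC-P it was -1.37, with Krt8, Krt18 and Ocln called lower and Krt7 called higher. Epcam was listed at 0 in every library and Cdh1 did not exceed 0.832 TPM. Of 10 fibroblast and mesenchymal markers 7 were measured. Vim stood between 2384 and 2674 TPM, and the list without Vim summed to 174 (JC-WT), 372 (JC-P) and 1005 TPM (JC-M3), mostly Col1a1 at 132 (JC-WT), 261 (JC-P) and 949 TPM (JC-M3). For JC-M3 against JC-WT the 7 had a median log2 ratio of 1.05, and 4 of them were called higher and 1 lower. For JC-M3 against JC-P their median was -0.17, with 2 called higher and 3 lower, so the sum did not stand for the list. Of 9 myeloid markers 2 were measured, Cd14 at 55.2 (JC-WT), 42.3 (JC-P) and 62.4 TPM (JC-M3) and Cd68 at 11.9 (JC-WT), 6.78 (JC-P) and 7.65 TPM (JC-M3), while Ptprc, the marker of all leukocytes, was listed at 0 in every library. No lymphocyte or red cell marker was measured. The endothelial marker Cdh5 stood at 0.0887 (JC-WT), 17.7 (JC-P) and 0.104 TPM (JC-M3), and the other 8 of 9 endothelial markers did not exceed 0.244 TPM in JC-P. Several of these markers differed between the populations, and their part in the transporter levels was not tested.

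The most abundant transporter transcripts formed a common core in all 3 populations. Most of that core lay within 2-fold between them, as did most measured features. The heavy chain Slc3a2, the light chains Slc7a5 and Slc7a6, the glutamine carrier Slc38a2 and the taurine carrier Slc6a6 were the first 5 by mean level. Of the 15 members with a mean of at least 20 TPM, 12 lay within 2-fold in every comparison. The share over all features of that level was not counted. Across all 27, 9 were at least 2-fold apart in 1 or more of the comparisons, where 17% of all measured features were, and 4 of those 9 had means below 5 TPM. The 61 genes summed to 1860 TPM (JC-WT), 1662 TPM (JC-P) and 1526 TPM (JC-M3), or 0.186% (JC-WT), 0.166% (JC-P) and 0.153% (JC-M3) of all transcripts. Without Slc38a3 the sums were 1772 (JC-WT), 1527 (JC-P) and 1514 TPM (JC-M3), so Slc38a3 held most of the distance between JC-M3 and JC-P.

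**Figure D1:**
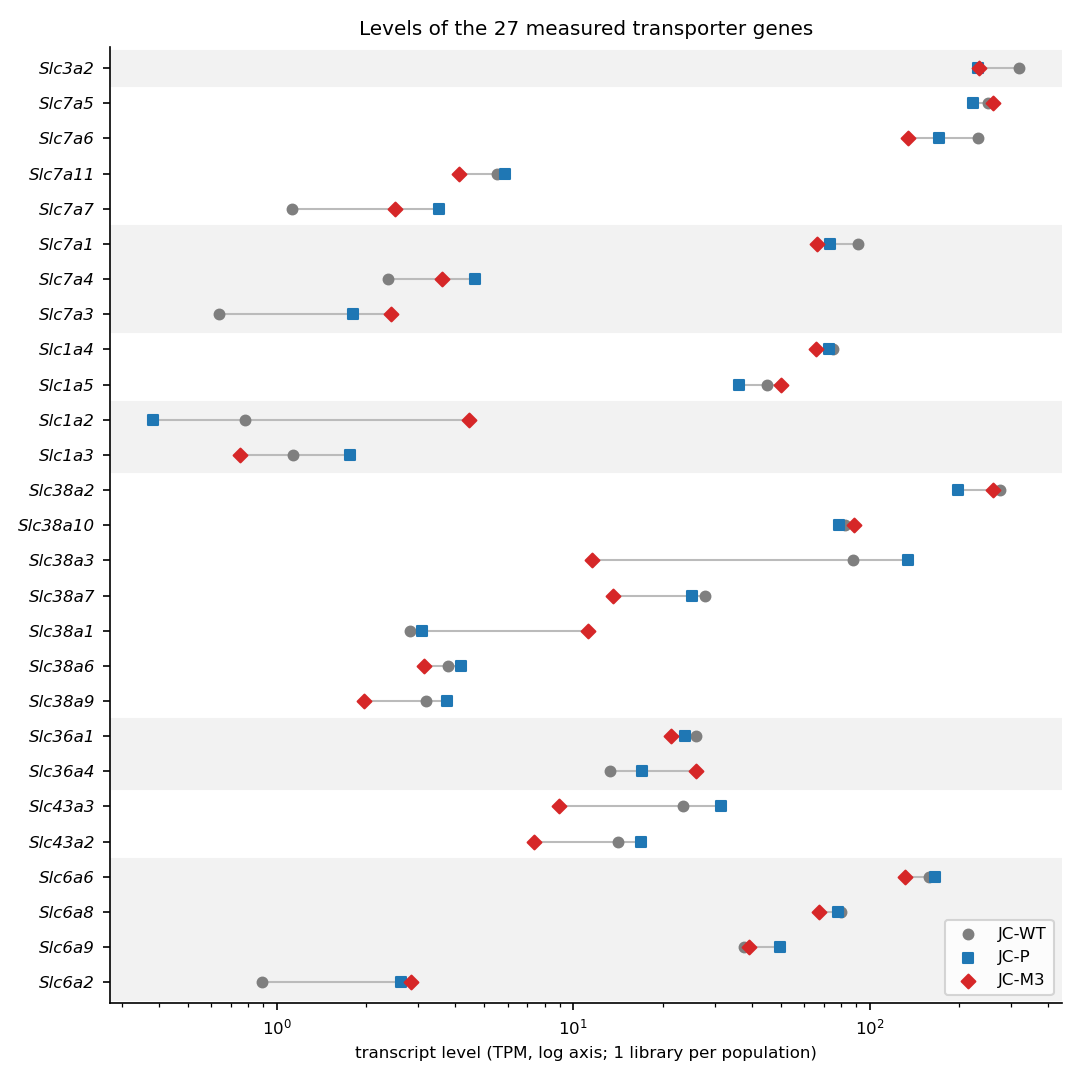
Transcript level in TPM (log axis) of the 27 measured transporter genes in the 3 populations, with 1 symbol per library and shaded bands that separate the role groups. Slc38a3 and Slc1a2 have the widest spans, with Slc38a3 lowest in JC-M3 (11.6 TPM) and Slc1a2 highest there (4.44 TPM).

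**Figure D2:**
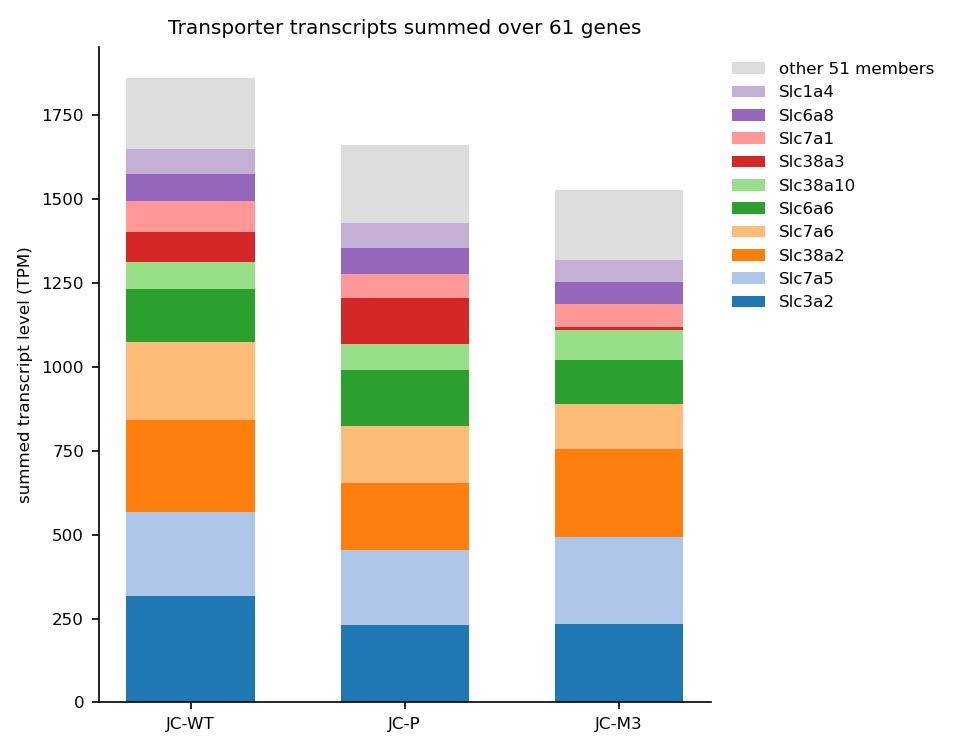
Summed TPM of the 61 transporter genes in each library, with the 10 genes of highest mean drawn as segments and the other 51 in grey. The sums were 1860 TPM (JC-WT), 1662 TPM (JC-P) and 1526 TPM (JC-M3), and the red Slc38a3 segment narrows to 11.6 TPM in JC-M3.

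Beside the background, the shares of members called lay above those of all measured features, except that of members lower in JC-P than in JC-WT. They rest on 0 to 4 genes each, and the difference was not tested. For JC-P against JC-WT, 3 of 27 members (11.1%) were at least 2-fold higher, where 4.76% of all measured features were. In that comparison 0 were at least 2-fold lower, where 2.33% were. For JC-M3 against JC-P, 2 (7.41%) were higher against 3.82% of features, and 3 (11.1%) were lower against 5.38%. For JC-M3 against JC-WT, 4 (14.8%) were higher against 6.14% and 3 (11.1%) lower against 5.27%. The median log2 ratio of the members was 0.08 for JC-P against JC-WT, -0.21 for JC-M3 against JC-P and -0.23 for JC-M3 against JC-WT, beside 0.01, -0.01 and 0.00 over all measured features in those comparisons. The first median was -0.0414 among the 19 members with a mean of at least 5 TPM. JC-M3 against JC-WT shares a library with each of the other comparisons and is no separate observation.

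**Figure D3:**
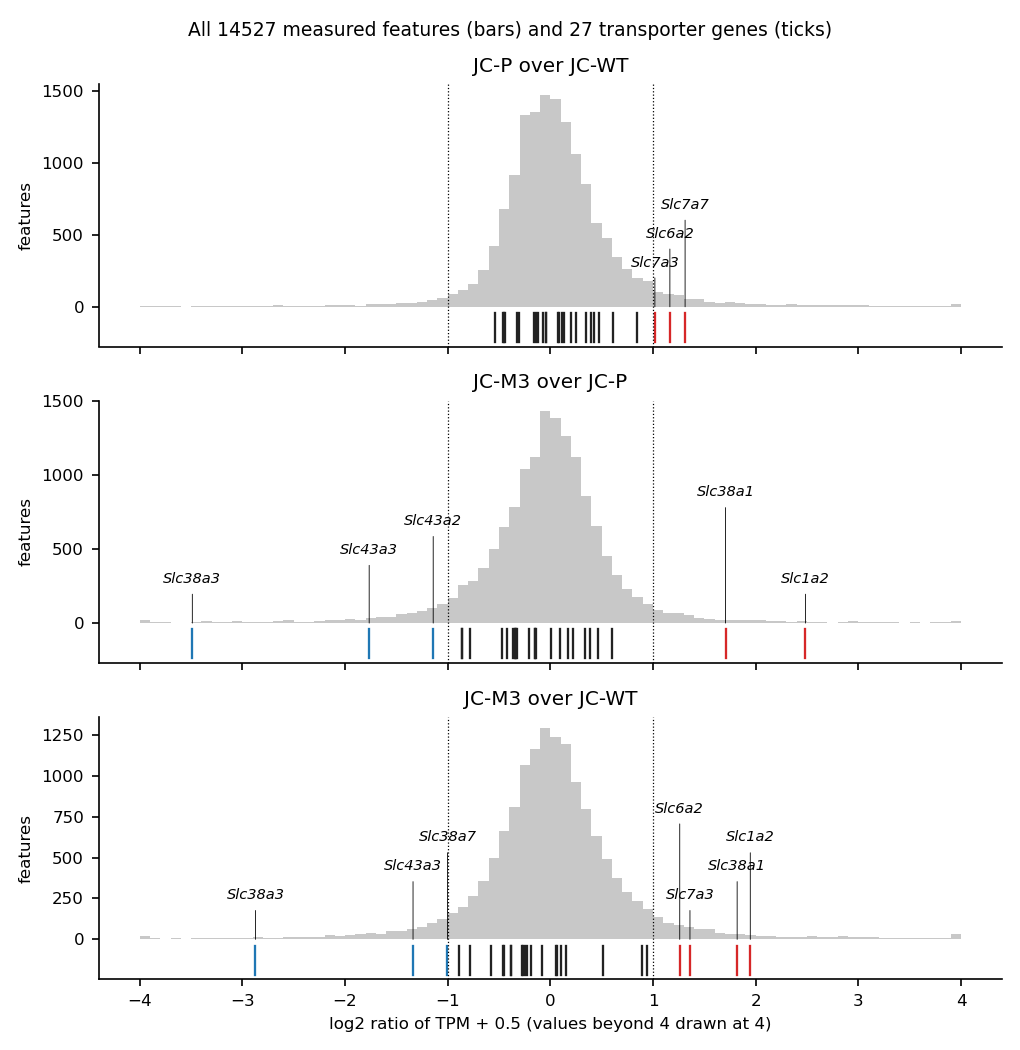
Number of measured features by log2 ratio of TPM + 0.5 in each comparison (grey bars, 14527 features), with 1 tick per transporter gene below, red where at least 2-fold higher and blue where at least 2-fold lower. Most ticks lie inside the dotted 2-fold lines, and Slc38a3 lies far to the left of them for JC-M3 against JC-P at -3.49.

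By the ratio of TPM + 0.5, the widest difference in the families was that of Slc38a3. It encodes SNAT3, a sodium-coupled glutamine, histidine and asparagine carrier known from liver, kidney and astrocytes that can run in either direction. It stood at 87.9 TPM (JC-WT), 135 TPM (JC-P) and 11.6 TPM (JC-M3), from 2490 (JC-WT), 4679 (JC-P) and 419 reads (JC-M3). JC-P was the highest of the 3 populations and JC-M3 the lowest by a wide margin. The log2 ratio of JC-M3 against JC-P was -3.49 (-3.69 to -3.40), and 33 of 14527 features had a lower one. That of JC-M3 against JC-WT was -2.87 (-3.08 to -2.78), with 72 features lower. For JC-P against JC-WT it was 0.62 (0.55 to 0.69), within 2-fold. In plain TPM, JC-M3 had 0.0858 times the JC-P level of Slc38a3 and 11.6 times that of Slc1a2, about the same distance each way. None of the 50-base windows of Slc38a3 transcripts occurred in another gene. In a bulk culture, fewer cells carrying a transcript and less of it per cell cannot be told apart.

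Slc38a1, encoding the glutamine and alanine carrier SNAT1, was higher in JC-M3. It stood at 2.81 TPM (JC-WT), 3.08 TPM (JC-P) and 11.2 TPM (JC-M3), so the first 2 were close and JC-M3 stood apart. The log2 ratio was 1.71 (1.69 to 2.03) for JC-M3 against JC-P and 1.82 (1.80 to 2.19) for JC-M3 against JC-WT, and 0.11 (-0.10 to 0.37) for JC-P against JC-WT. The level of Slc38a3 was thus 1.03 times that of Slc38a1 in JC-M3, against 43.8 times in JC-P and 31.3 times in JC-WT. Slc38a1 and Slc38a2 lie 44478 bases apart on chromosome 15 (GRCm38), on the same strand, at 96571418 to 96642913 and 96687392 to 96699730. Both neighbours were higher in JC-M3 than in JC-P, but only Slc38a1 was also higher than in JC-WT. The measured protein-coding genes of chromosome 15 had a median log2 ratio of 0.24 for JC-M3 against JC-P. Slc38a2, encoding SNAT2, the carrier that cells make more of when amino acids are scarce, stood at 274 TPM (JC-WT), 199 TPM (JC-P) and 259 TPM (JC-M3). Its log2 ratio was -0.46 (-0.50 to -0.43) for JC-P against JC-WT and 0.39 (0.35 to 0.42) for JC-M3 against JC-P. Slc38a4, the next member along chromosome 15 and an amino acid carrier of liver and placenta, had 4 (JC-WT), 1 (JC-P) and 19 reads (JC-M3) and was not measured.

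Slc38a2 was the most abundant Slc38 transcript in every library. The 11 Slc38 genes summed to 482 TPM (JC-WT), 448 TPM (JC-P) and 390 TPM (JC-M3). Slc38a2 held 56.8% (JC-WT), 44.3% (JC-P) and 66.5% (JC-M3) of that sum, Slc38a3 held 18.2% (JC-WT), 30.1% (JC-P) and 2.97% (JC-M3), and Slc38a1 held 0.583% (JC-WT), 0.687% (JC-P) and 2.87% (JC-M3). Among the intracellular members, Slc38a7, which exports glutamine and asparagine from the lysosome, stood at 27.7 (JC-WT), 25.1 (JC-P) and 13.6 TPM (JC-M3). Its log2 ratio for JC-M3 against JC-WT was -1.0 (-1.22 to -0.84), at the edge of the 2-fold line, and it lay inside that line after median-ratio scaling. Slc38a9, the lysosomal arginine sensor of mTORC1, stood at 3.19 (JC-WT), 3.74 (JC-P) and 1.97 TPM (JC-M3), with a log2 ratio of -0.78 (-1.17 to -0.69) for JC-M3 against JC-P. It lies on chromosome 13, whose measured protein-coding genes had a median of -0.52 in that comparison. Slc38a10 lay within 2-fold at 82.6 (JC-WT), 78.5 (JC-P) and 88.5 TPM (JC-M3). Slc38a6 stood at 3.78 (JC-WT), 4.18 (JC-P) and 3.15 TPM (JC-M3), and 35.5% of its 50-base windows were shared with other genes, so its level is uncertain. Slc38a5, Slc38a8 and Slc38a11 had 1 read or none in each library.

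The 2 measured Slc43 genes were both at least 2-fold lower in JC-M3 than in JC-P. Slc43a3, which in spite of its family carries purine nucleobases, stood at 23.4 TPM (JC-WT), 31.6 TPM (JC-P) and 8.95 TPM (JC-M3). Its log2 ratio was -1.76 (-2.02 to -1.62) for JC-M3 against JC-P and -1.34 (-1.60 to -1.17) for JC-M3 against JC-WT. It lies on chromosome 2, whose measured protein-coding genes had medians of -0.23 and -0.31 in those comparisons. Slc43a2, encoding LAT4, which lets leucine, isoleucine, methionine and phenylalanine out of the cell, stood at 14.1 (JC-WT), 16.9 (JC-P) and 7.39 TPM (JC-M3), with a log2 ratio of -1.14 (-1.35 to -1.04) for JC-M3 against JC-P and -0.89 (-1.10 to -0.77) for JC-M3 against JC-WT. For both genes JC-P was the highest library. Slc43a1, the related carrier LAT3, lies 72984 bases from Slc43a3 on chromosome 2 and did not exceed 0.0765 TPM. Of the exon bases of Slc43a2, 9.18% overlap the antisense gene Gm45606, which stood at 1.63 TPM or less. The strand setting of the counts is not given in the sources used here, so reads of such pairs may not have been told apart.

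Slc1a2 had the highest ratio among the members for JC-M3 against JC-P. It encodes GLT-1, the high-affinity glutamate carrier best known from astrocytes, and stood at 0.780 TPM (JC-WT), 0.382 TPM (JC-P) and 4.44 TPM (JC-M3), from 55 (JC-WT), 33 (JC-P) and 400 reads (JC-M3). The log2 ratio was 2.48 (3.02 to 4.10) for JC-M3 against JC-P and 1.95 (2.10 to 2.94) for JC-M3 against JC-WT. For JC-P against JC-WT it was -0.54 (-1.70 to -0.38). Even in JC-M3 its level was far below those of Slc1a4 and Slc1a5, the neutral carriers of its family. Slc1a3, the other glial glutamate carrier (GLAST), stood at 1.13 (JC-WT), 1.76 (JC-P) and 0.751 TPM (JC-M3), highest in JC-P. The remaining glutamate carriers Slc1a1, Slc1a6 and Slc1a7 had between 0 and 4 reads per library. Slc1a5, encoding the glutamine exchanger ASCT2, stood at 45.0 TPM (JC-WT), 36.3 TPM (JC-P) and 50.3 TPM (JC-M3), with log2 ratios of -0.31 (-0.44 to -0.18) for JC-P against JC-WT and 0.46 (0.35 to 0.59) for JC-M3 against JC-P, both within 2-fold.

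The heavy chain and its main light chains were abundant everywhere, and the balance between the light chains differed. Slc3a2 stood at 318 TPM (JC-WT), 232 TPM (JC-P) and 233 TPM (JC-M3). Slc7a5, encoding LAT1, which takes up leucine and other large neutral amino acids, stood at 250 (JC-WT), 223 (JC-P) and 261 TPM (JC-M3). Slc7a6, encoding y+LAT2, which exchanges arginine for glutamine, stood at 231 (JC-WT), 171 (JC-P) and 135 TPM (JC-M3). The log2 ratio of Slc7a6 was -0.44 (-0.50 to -0.39) for JC-P against JC-WT, -0.34 (-0.40 to -0.28) for JC-M3 against JC-P and -0.78 (-0.84 to -0.72) for JC-M3 against JC-WT, each within 2-fold and beyond counting error. That of Slc7a5 was 0.07 (0.01 to 0.12) for JC-M3 against JC-WT. Of the summed transcripts of the 6 light chains that pair with Slc3a2, Slc7a5 held 51.2% (JC-WT), 55.4% (JC-P) and 64.9% (JC-M3), and Slc7a6 held 47.5% (JC-WT), 42.3% (JC-P) and 33.5% (JC-M3). Those light chains summed to 1.53 (JC-WT), 1.74 (JC-P) and 1.73 times (JC-M3) the level of Slc3a2. Slc7a8 and Slc7a10, which also pair with Slc3a2, were listed at 0 in every library.

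Slc7a11 was low beside Slc7a5, with a log2 ratio of -0.47 (-0.71 to -0.32) for JC-M3 against JC-P. Slc7a7, encoding y+LAT1, the arginine exporter of kidney, intestine and macrophages, stood at 1.12 TPM (JC-WT), 3.53 TPM (JC-P) and 2.51 TPM (JC-M3), from 20 (JC-WT), 77 (JC-P) and 57 reads (JC-M3). JC-WT was the low library, and the log2 ratio of JC-P against JC-WT was 1.31 (0.93 to 2.44). It was 0.89 (0.40 to 1.97) for JC-M3 against JC-WT. Of its exon bases 7.0% overlap Oxa1l on the other strand, and Oxa1l stood at 50.2 (JC-WT), 38.4 (JC-P) and 32.1 TPM (JC-M3). The effect of this overlap on the Slc7a7 counts was not tested. Slc3a1, the second heavy chain, had 2 (JC-WT), 11 (JC-P) and 12 reads (JC-M3) and was not measured, and its partner Slc7a9 was listed at 0 throughout. Slc7a13, another partner of Slc3a1, had 3 reads in JC-WT and 0 in the other libraries.

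Among the cationic carriers, which take up arginine, lysine and ornithine, Slc7a1 made up nearly all of the transcripts. Slc7a1 (CAT1) stood at 91.5 TPM (JC-WT), 73.2 TPM (JC-P) and 66.3 TPM (JC-M3), which was 96.5% (JC-WT), 91.9% (JC-P) and 91.1% (JC-M3) of the sum over the genes Slc7a1 to Slc7a4. Its log2 ratio was -0.46 (-0.52 to -0.41) for JC-M3 against JC-WT. Slc7a3 (CAT3), a carrier best known from brain, stood at 0.640 (JC-WT), 1.81 (JC-P) and 2.43 TPM (JC-M3), from 13 (JC-WT), 45 (JC-P) and 63 reads (JC-M3), so JC-WT was again the low library. Its log2 ratio was 1.02 (0.58 to 2.51) for JC-P against JC-WT and 1.36 (1.05 to 2.91) for JC-M3 against JC-WT. The first of these was below 2-fold once the median of the X chromosome was subtracted. Slc7a4, a relative of these carriers, stood at 2.38 (JC-WT), 4.65 (JC-P) and 3.62 TPM (JC-M3), and 13.3% of its exon bases overlap P2rx6 on the other strand, at 4.31 to 6.09 TPM. Slc7a2 (CAT2) had 14 (JC-WT), 1 (JC-P) and 25 reads (JC-M3) and was not measured.

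Of the 4 Slc36 genes 2 were measured, and the order of their levels differed between the populations. Slc36a1, encoding the lysosomal and plasma membrane carrier PAT1, stood at 26.0 TPM (JC-WT), 23.8 TPM (JC-P) and 21.4 TPM (JC-M3). Slc36a4, encoding PAT4, a carrier of proline and tryptophan, stood at 13.3 (JC-WT), 17.0 (JC-P) and 26.0 TPM (JC-M3). Slc36a4 thus had 0.512 times the level of Slc36a1 in JC-WT, 0.715 times in JC-P and 1.22 times in JC-M3. Its log2 ratio was 0.60 (0.48 to 0.75) for JC-M3 against JC-P and 0.94 (0.81 to 1.12) for JC-M3 against JC-WT, just under the 2-fold line.

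Of 18 Slc6 genes in roles of neurotransmitter, osmolyte and amino acid uptake, 4 were measured, and the abundant 3 lay within 2-fold in every comparison. The taurine carrier Slc6a6 stood at 158 TPM (JC-WT), 166 TPM (JC-P) and 131 TPM (JC-M3). The creatine carrier Slc6a8 stood at 80.2 (JC-WT), 78.1 (JC-P) and 67.4 TPM (JC-M3). The glycine carrier Slc6a9 (GlyT1) stood at 37.7 (JC-WT), 49.7 (JC-P) and 39.1 TPM (JC-M3), highest in JC-P, with a log2 ratio of 0.39 (0.29 to 0.51) for JC-P against JC-WT. Of its exon bases 27.8% overlap Ccdc24 on the other strand, which stood at 0.542 TPM or less. Slc6a2, the noradrenaline carrier, stood at 0.889 (JC-WT), 2.61 (JC-P) and 2.83 TPM (JC-M3), from 30 (JC-WT), 108 (JC-P) and 122 reads (JC-M3). JC-WT stood apart from the other libraries, with a log2 ratio of 1.16 (0.96 to 2.19) for JC-P against JC-WT and 1.26 (1.08 to 2.30) for JC-M3 against JC-WT. The serotonin carrier Slc6a4 had 8 (JC-WT), 14 (JC-P) and 14 reads (JC-M3). Slc6a21, which is placed in no role group here, was listed at 0 in every library.

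**Figure D4:**
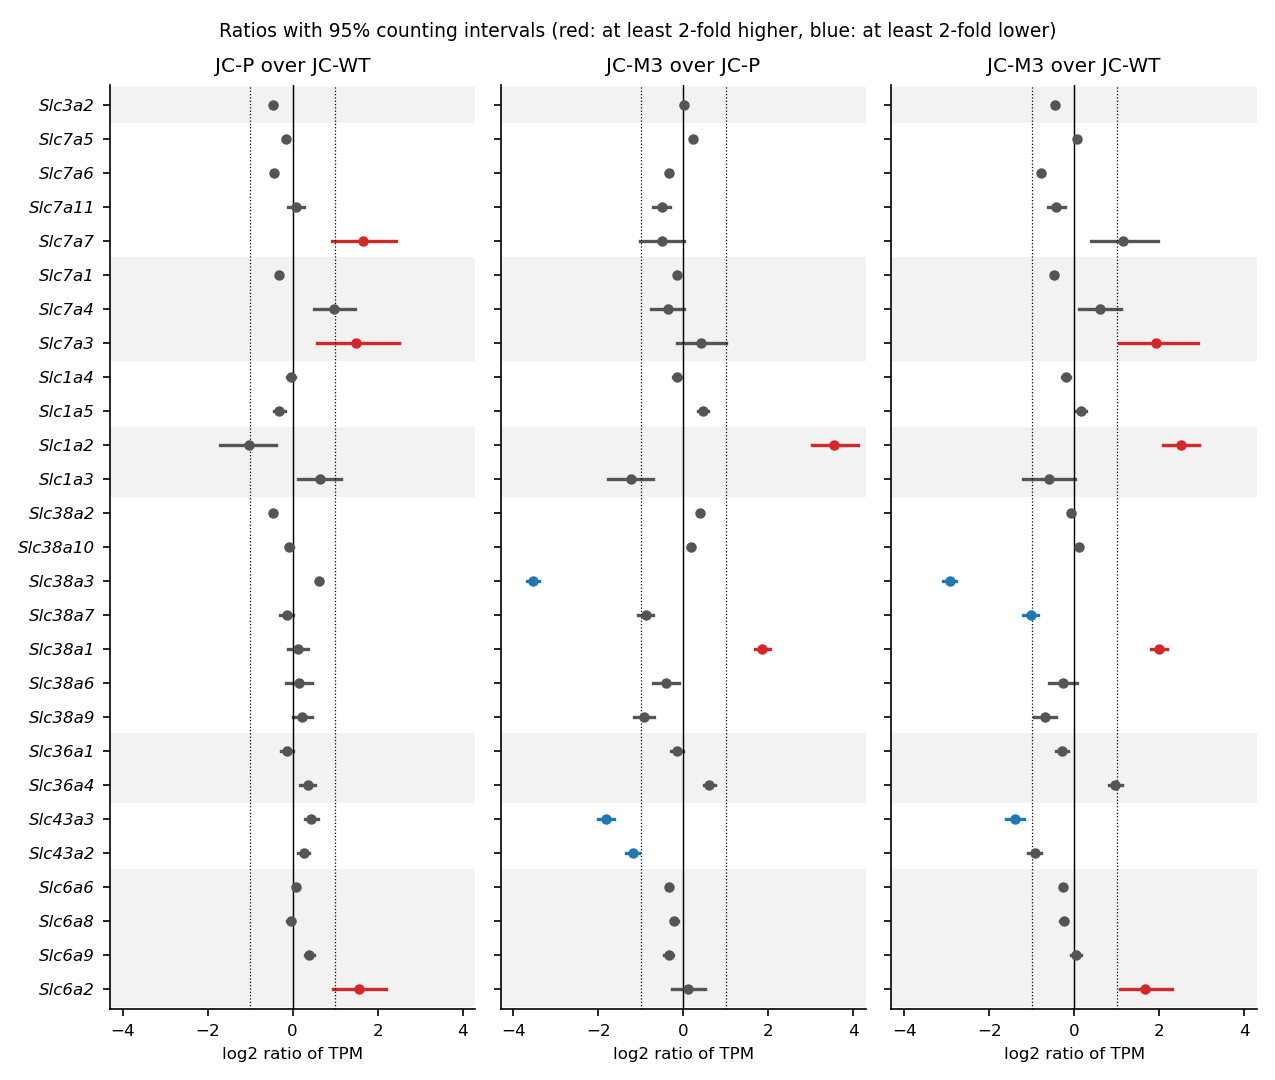
Log2 ratio of plain TPM (points) with 95% exact counting intervals (bars) for the 27 measured transporter genes in the 3 comparisons, with dotted lines at 2-fold and shaded bands that separate the role groups. Colours follow the ratios of TPM + 0.5 (red at least 2-fold higher, blue at least 2-fold lower), so a few low genes beyond a dotted line stay grey. Slc38a3, Slc43a3 and Slc43a2 are blue for JC-M3 against JC-P, and Slc38a1 and Slc1a2 are red.

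In all, 34 of the 61 genes were not measured. Of these, 17 were listed at 0 in every library and 17 had at most 25 reads in any library, with Slc3a1 the highest at a mean of 0.557 TPM. The lowest measured member was Slc1a3, at a mean of 1.22 TPM. Counting intervals of the 27 measured genes left out no change for 20 in JC-P against JC-WT, 22 in JC-M3 against JC-P and 24 in JC-M3 against JC-WT. The same was not counted over all features. With many reads an interval leaves out no change even at a small ratio, such as 0.07 for Slc7a5 in JC-M3 against JC-WT.

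Genes of the pathways around the transporters were mostly within 2-fold. Of 16 measured carriers of amino acids outside these families, 1 was higher and 0 lower for JC-P against JC-WT, and 0 were higher and 1 lower for JC-M3 against JC-P. The one higher in JC-P was Slc16a10, the aromatic amino acid carrier TAT1, at 4.0 TPM (JC-WT), 11.2 TPM (JC-P) and 10.4 TPM (JC-M3). The one lower in JC-M3 was Mfsd12, which brings cysteine into lysosomes and melanosomes, at 83.1 (JC-WT), 127 (JC-P) and 46.9 TPM (JC-M3). Ctns, the lysosomal cystine exporter, stood at 42.5 (JC-WT), 35.7 (JC-P) and 19.0 TPM (JC-M3), with a log2 ratio of -1.14 (-1.33 to -0.99) for JC-M3 against JC-WT. Of 14 measured accessory and regulatory proteins, Txnip (JC-WT 7.46, JC-P 18.9 and JC-M3 28.2 TPM) and the kinase gene Stk39 (JC-WT 6.24, JC-P 13.5 and JC-M3 17.3 TPM) were at least 2-fold higher than JC-WT in both JC-P and JC-M3, and 0 were lower in any comparison.

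Of 39 measured genes of amino acid sensing by mTORC1, 0 were 2-fold higher in any comparison and 1 was lower. That gene was Deptor, an inhibitory partner of mTOR, at 45.5 TPM (JC-WT), 40.6 TPM (JC-P) and 10.5 TPM (JC-M3), a log2 ratio of -1.91 (-2.09 to -1.83) for JC-M3 against JC-P. Of 30 measured ATF4 and amino acid response genes, 1 was higher and 2 lower for JC-P against JC-WT. For JC-M3 against JC-P, 1 was higher and 1 lower. For JC-M3 against JC-WT, 2 were higher and 3 lower, with a median of -0.23. Atf4 itself stood at 881 (JC-WT), 654 (JC-P) and 787 TPM (JC-M3). The 3 lower for JC-M3 against JC-WT were the glutathione-degrading gene Chac1 (JC-WT 105, JC-P 73.2 and JC-M3 46.3 TPM), the pseudokinase gene Trib3 (JC-WT 98.0, JC-P 70.0 and JC-M3 41.1 TPM) and the secreted glycoprotein gene Stc2 (JC-WT 46.0, JC-P 17.0 and JC-M3 11.2 TPM). The 2 higher in that comparison were the cystathionine lyase gene Cth (JC-WT 7.28, JC-P 7.91 and JC-M3 18.5 TPM) and Gdf15 (JC-WT 0.704, JC-P 2.63 and JC-M3 2.12 TPM). Of 17 measured genes of cystine, glutathione and ferroptosis, Cth was the 1 higher for JC-M3 against JC-WT, and Chac1 and the haem oxygenase gene Hmox1 (JC-WT 264, JC-P 136 and JC-M3 105 TPM) were lower. Nfe2l2, encoding NRF2, stood at 155 (JC-WT), 202 (JC-P) and 173 TPM (JC-M3), and Myc at 123 (JC-WT), 82.7 (JC-P) and 105 TPM (JC-M3).

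Among 16 measured glutamine and glutamate genes, 2 passed 2-fold in any comparison, both higher for JC-M3 against JC-P. Ctps1, the CTP synthase that takes its amino group from glutamine, stood at 87.8 (JC-WT), 66.1 (JC-P) and 152 TPM (JC-M3), with a log2 ratio of 1.20 (1.11 to 1.29). Cad, the enzyme that uses glutamine to begin pyrimidine synthesis, stood at 79.1 (JC-WT), 40.7 (JC-P) and 85.4 TPM (JC-M3), with a log2 ratio of 1.06 (1.00 to 1.14) for JC-M3 against JC-P. The 19 measured genes of branched-chain amino acid breakdown held 1 lower for JC-M3 against JC-WT, the methylcrotonyl-CoA carboxylase gene Mccc2 (JC-WT 27.3, JC-P 21.5 and JC-M3 11.5 TPM), and 0 past 2-fold in the other comparisons. Of 19 measured genes of arginine, proline, glycine and taurine metabolism, 2 were higher and 1 lower for JC-P against JC-WT. For JC-M3 against JC-WT, 0 were higher and 3 lower. For JC-M3 against JC-P, 4 were lower and 0 higher. The 3 lowest were the inducible nitric oxide synthase gene Nos2 (JC-WT 1.55, JC-P 5.42 and JC-M3 0.296 TPM), the creatine kinase gene Ckb (JC-WT 1.87, JC-P 7.83 and JC-M3 2.16 TPM) and the argininosuccinate synthase gene Ass1 (JC-WT 13, JC-P 26.4 and JC-M3 9.66 TPM). The ornithine decarboxylase gene Odc1, the first step from ornithine to polyamines, stood at 695 (JC-WT), 371 (JC-P) and 259 TPM (JC-M3), with a log2 ratio of -1.42 (-1.47 to -1.38) for JC-M3 against JC-WT. All 20 measured cytosolic aminoacyl-tRNA synthetases and all 8 measured genes of Myc and its partners were within 2-fold in every comparison.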

How the data were processed

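The deposited table gives TPM for 1 library per population, made by the authors from reads per gene, gene length and library total, per the file headers and the column sums. Per the submitters' processing notes, the tools were STAR 2.7.9a, FastQC 0.11.9 and an unversioned featureCounts, on mouse build GRCm38 (mm10). Which annotation was counted, and whether by strand, is not given in the sources used here.

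Genes were taken by symbol, and lists also by GENCODE M21 name. The members and lists were chosen with earlier results of these data known. Ratios were computed as log2 of TPM + 0.5 over the 14527 features that averaged 1 TPM or more. TPM times the merged exon length of GENCODE M21 gave whole multiples of a fixed step, within 0.01 of a read, for 98.4% (JC-WT), 98.5% (JC-P) and 98.5% (JC-M3) of expressed features, and for all 61 members. Intervals from these reads are exact conditional (Clopper-Pearson) ones and cover counting error only. Values in full were given for members 2-fold apart in any comparison and for the 8 with the highest mean, and the others were described by level. List genes named were drawn from those past 2-fold, at most 3 each way per comparison, with Atf4, Nfe2l2 and Myc, and not every gene past 2-fold is named. Shared sequence was counted in 50-base windows of annotated transcripts, on both strands. Promoters are RefSeq's (GRCm38.p6), and chromosome 18 was not used for them. The scripts were tested on simulated data. The versions were matplotlib 3.10.9, scipy 1.17.1, pandas 2.3.3, numpy 2.4.6 and Python 3.11.15.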

Additional observations from a re-analysis of the deposited data

How the results depend on the processing

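No paired analysis was possible because each population had 1 library, and for the same reason no replicate could be left out. Calls of genes of a few TPM depended on the settings. With pseudocount 2 the members at least 2-fold higher numbered 0 for JC-P against JC-WT and 2 for JC-M3 against JC-WT. With a mean of at least 5 TPM they numbered 0, 1 and 1 for JC-P against JC-WT, JC-M3 against JC-P and JC-M3 against JC-WT, and the median for JC-P against JC-WT was -0.0414. With no filter the medians were 0 for JC-M3 against JC-P and 0 for JC-M3 against JC-WT, because unexpressed genes have a ratio of 0. A 1.5-fold threshold gave 5 higher for JC-P against JC-WT, 6 lower for JC-M3 against JC-P and 5 lower for JC-M3 against JC-WT. A 3-fold threshold gave 0 higher for JC-P against JC-WT, and 2 higher and 1 lower for JC-M3 against JC-WT. The shares over all features at the 1.5-fold and 3-fold thresholds are not given here, so those counts describe the members only. Of 15 calls, 6 were lost with pseudocount 2, 0 with pseudocount 0.1 and 1 (Slc38a7) with either other scaling. Subtracting chromosome medians, an alternative chosen after seeing the data, lost 2 (Slc38a7 for JC-M3 against JC-WT and Slc7a3 for JC-P against JC-WT) and added 1 (Slc7a7 for JC-M3 against JC-WT). No call changed direction under these 5 settings, but none of them could have turned one. A pseudocount keeps the sign of a ratio, and the scalings and chromosome medians moved the called ratios by less than 2-fold. Medians of lists near 0 changed sign. With no filter those of the accessory, cystine and glutamine lists were -0.0360 and -0.00591 for JC-P against JC-WT and -0.0283 for JC-M3 against JC-P. With a mean of at least 5 TPM those of the arginine and Myc lists were 0.103 and 0.0119 for JC-M3 against JC-P, and without mitochondrially encoded genes the cystine list had 0.00442 for JC-M3 against JC-WT. The cause was not tested.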
